A study of Mus musculus with 6 samples.

Results

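Toll-like receptors are membrane proteins that recognise conserved parts of microbes. The genes described here are 7 Toll-like receptor genes (Tlr1, Tlr2, Tlr3, Tlr4, Tlr6, Tlr7 and Tlr9), the lipopolysaccharide co-receptor genes Cd14 and Ly96, and the adaptor gene Myd88. They were taken by symbol from the array annotation, where all 10 had exactly 1 probe set assigned to them alone, out of 22180 genes measured. Whole-transcript arrays profiled haematopoietic stem cells sorted from the bone marrow of C57BL/6J mice as CCR2+ HSC (3 pools) or CCR2- HSC (3 pools). Each pool combined the marrow of 20 mice, and 5 ng of total RNA per pool was amplified before labelling. CCR2 is the chemokine receptor that guides monocytes out of the marrow, and it was the property by which the groups were sorted. No other treatment or allele is named for either group. The labels used here do not state age, sex, or which further surface markers defined the stem cells, or whether both kinds of pool were sorted from shared animals.

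Receptors at the cell surface bind bacterial lipids and proteins, and receptors in endosomes bind nucleic acids. TLR2 works as a pair with TLR1 or TLR6 on lipopeptides. TLR4 binds lipopolysaccharide (LPS) only together with MD-2, the product of Ly96, to which CD14 hands over the ligand. Most of these receptors signal through the adaptor MyD88 to NF-kB, while TLR3 uses another adaptor. Haematopoietic stem and progenitor cells of the mouse are known to carry functional Toll-like receptors, and mature monocytes, macrophages and neutrophils use them to sense infection.

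All values are the deposited log2 values. A difference is the CCR2-positive mean minus the CCR2-negative mean, with a standard error from limma, a linear model that shares its variance estimate across genes. A level of 0.05 was used throughout for p-values. Of the 10 genes, 8 had a lower mean in the CCR2-positive pools and 2 (Tlr7 and Tlr9) a higher one, with a median difference of -0.15, and Tlr7 turned lower with each of the 3 other normalizations tried. Over all genes 44.0% were lower and the median difference was 0.03. With limma and Benjamini-Hochberg adjustment over all genes, 0 of the 10 had an adjusted p under 0.05, as did 0% of all genes. At an unadjusted p under 0.05 there were 3 of the 10, namely Tlr2, Tlr4 and Ly96, all with lower values in CCR2-positive pools, against 6.61% of all genes lower at that level and 12.2% in either direction. Without CCR2-positive replicate 1 this count was 1, and Tlr6 or Tlr3 entered it when another pool was left out. For 2 of the 10, Tlr2 and Ly96, every CCR2-positive pool was below every CCR2-negative pool, where 7.88% of all genes were lower without overlap. The design counts the pools of a group as biological replicates. A limma p-value sets the group difference against the spread between pools, which is estimated in part from the other genes. In pools of sorted cells fewer cells of a type and less RNA per cell cannot be told apart.

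The array medians lay between 5.48 and 5.58, and arrays correlated at r = 0.960 to 0.983 across probe sets. Kit, the receptor of stem cell factor, had log2 values of 9.67 to 9.81 in CCR2-positive pools and 9.84 to 10.25 in CCR2-negative pools. This gene of stem and progenitor cells was thus well above the array medians in every pool. So was the erythroid marker Car1, with 11.97 to 12.10 in CCR2-positive pools and 11.56 to 11.90 in CCR2-negative pools. The Ccr2 transcript itself differed by 0.79 ± 0.24 (adjusted p = 0.274), with overlapping pools. Signal over background is unknown for these arrays. The mean levels of Tlr1, Tlr3, Tlr7 and Ly96 were under the 25th percentile of all genes, and those of the other 6 were above it.

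**Figure D1:**
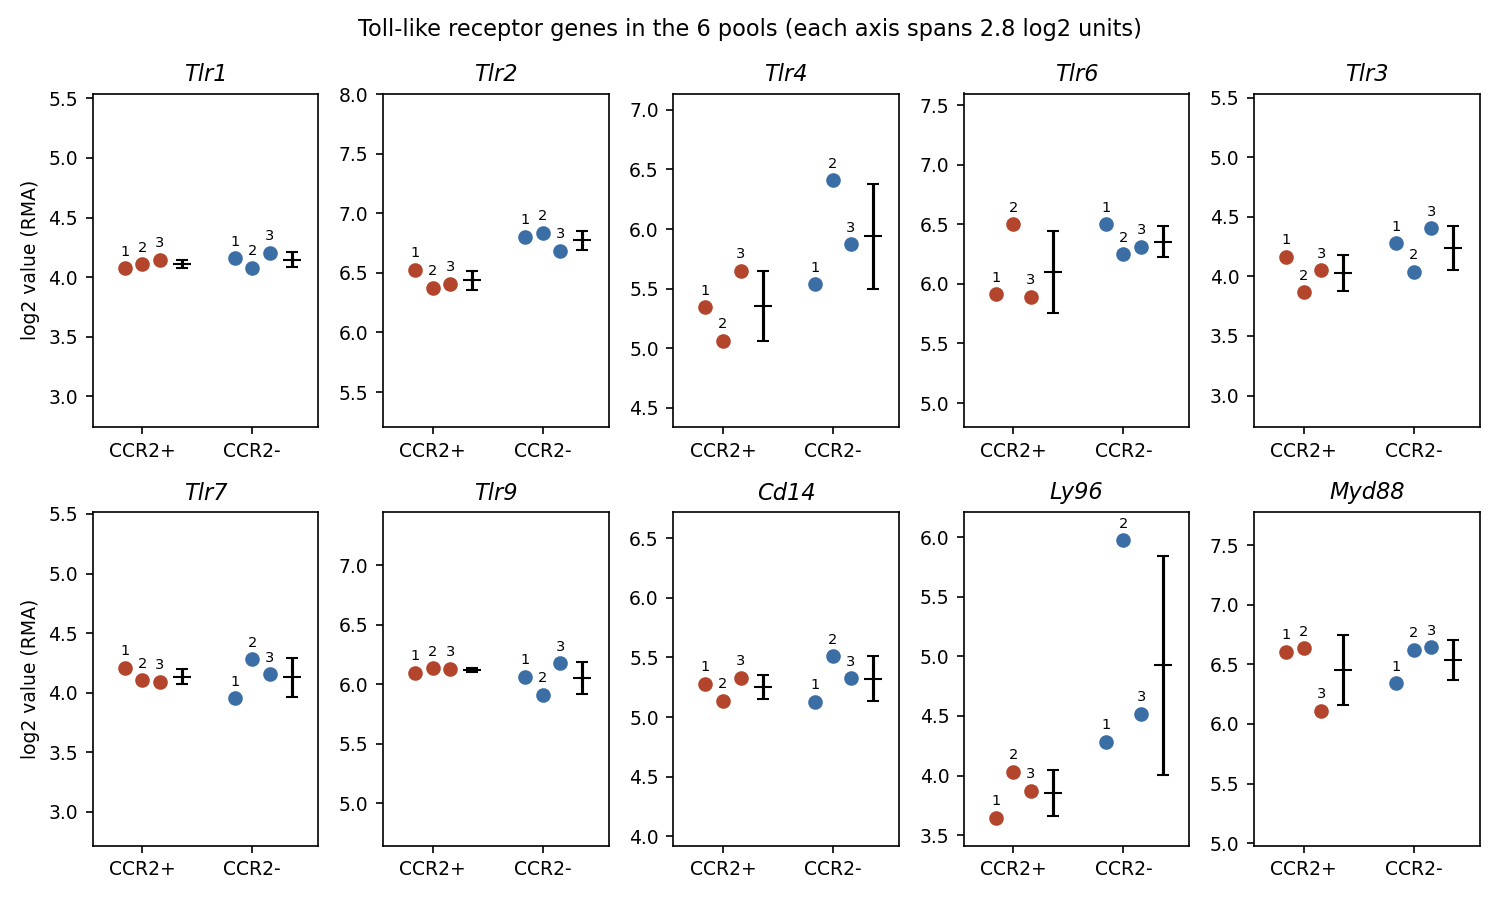
Log2 value (y axis) of each of the 10 genes in the CCR2-positive (CCR2+, red) and CCR2-negative (CCR2-, blue) pools, with the replicate number above each point and the mean and SD of 3 pools in black. Axes start at different values and span the same number of log2 units. The pools separate for Tlr2 and Ly96, and CCR2-negative replicate 2 stands highest for Tlr4 at 6.41 and for Ly96 at 5.98.

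Among the receptors of the cell surface, Tlr2 had the smallest unadjusted p of the 10 genes. TLR2 is the shared partner in the detection of lipopeptides. Its log2 values were 6.53, 6.38 and 6.41 in CCR2-positive replicates 1 to 3, against 6.80, 6.83 and 6.68 in CCR2-negative replicates 1 to 3. All CCR2-positive pools lay below all CCR2-negative pools, and the SD was 0.08 in each group. Tlr2 differed by -0.34 ± 0.10, or 1.26-fold lower, with a 95% interval of -0.57 to -0.10. Its limma p was 0.00994 before and 0.270 after adjustment, and 814 genes had a smaller p. The exact two-sided permutation test over the 6 pools gave p = 0.1, the smallest this design allows. The difference held its sign and an unadjusted p under 0.05 in all 17 fits run, from -0.38 without CCR2-positive replicate 1 to -0.28 with array weights.

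A short stretch before a start site of Tlr2 is shown because Tlr2 was the one gene with separated pools for which a promoter sequence was at hand, and because NF-kB is the factor to which these receptors signal. RefSeq windows of 250 bases before a start site (build GRCm38.p6) were matched for 6 of the 10 genes, as 8 windows, and were searched on both strands for NF-kB, the PU.1 core GAGGAA, the GC box GGGCGG and the interferon response core, which is GAAA repeated after a gap of 2 bases. The 30 bases below lie at chr3:83841762-83841791, minus strand, and inside the RefSeq span of the gene, upstream of the start site that the table uses. Capitals mark 2 overlapping matches to NF-kB.
Tlr2: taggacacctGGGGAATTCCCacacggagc
A match to NF-kB occurred in 3.9% of the 32851 windows of this length in the table, to the PU.1 core in 23.3%, to the GC box in 32.7% and to the interferon response core in 2.98%. The Tlr2 window also held 2 GC box matches, and the Tlr3 window held the only other NF-kB match among the 8 windows. These matches describe letters in the windows and were not tested for binding or effect.

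Tlr4 encodes the receptor chain for LPS. Its values were 5.34, 5.06 and 5.65 in CCR2-positive replicates 1 to 3, against 5.54, 6.41 and 5.87 in CCR2-negative replicates 1 to 3. The groups overlapped, because CCR2-positive replicate 3 lay above CCR2-negative replicate 1, and CCR2-negative replicate 2 was the highest pool. Tlr4 differed by -0.59 ± 0.23, or 1.5-fold lower, with a 95% interval of -1.11 to -0.06 and a limma p of 0.0318 (adjusted p = 0.360). The exact permutation test gave p = 0.2. Without CCR2-negative replicate 2 the difference was -0.35 (unadjusted p = 0.110). The unadjusted p was also above 0.05 without CCR2-positive replicate 1 or 2 or CCR2-negative replicate 3, and with all probe sets tested (0.0568).

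Tlr6 and Tlr1 encode the partners of TLR2 and lie next to each other on chromosome 5. Tlr6 had log2 values of 5.91, 6.50 and 5.89 in CCR2-positive replicates 1 to 3, against 6.50, 6.25 and 6.31 in CCR2-negative replicates 1 to 3. CCR2-positive replicates 1 and 3 were the lowest pools, while CCR2-positive replicate 2 was level with the highest CCR2-negative pool. Tlr6 differed by -0.25 ± 0.17 (95% interval -0.65 to 0.14, adjusted p = 0.584). It differed by -0.45 without CCR2-positive replicate 2, with an unadjusted p of 0.00677, and by -0.16 and -0.15 without CCR2-positive replicates 1 and 3. Tlr1 had 4.08, 4.11 and 4.15 in CCR2-positive pools, against 4.16, 4.08 and 4.21 in CCR2-negative pools. All 6 Tlr1 values lay within 0.13 of each other, with a difference of -0.04 ± 0.10 (95% interval -0.26 to 0.18) that was -0.072 to -0.0082 with 1 pool left out. All 4 surface receptors chosen here (Tlr1, Tlr2, Tlr4 and Tlr6) had a lower mean in the CCR2-positive pools, by -0.04 to -0.59. Over all genes 44.0% were lower. The flagellin receptor gene Tlr5, also of the cell surface, was not among the 4 and had a higher mean, by 0.23 ± 0.14.

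The co-receptor genes of TLR4, Ly96 and Cd14, had unequal differences. Ly96 had log2 values of 3.65, 4.03 and 3.87 in CCR2-positive replicates 1 to 3, against 4.28, 5.98 and 4.52 in CCR2-negative replicates 1 to 3. The groups did not overlap, and CCR2-negative replicate 2 was far above the other 2 pools of its group, which gave an SD of 0.19 in CCR2-positive pools against 0.92 in CCR2-negative pools. Ly96 differed by -1.07 ± 0.38, or 2.1-fold lower, the largest difference of the 10 genes, with a 95% interval of -1.95 to -0.20. The limma p was 0.0217 (adjusted p = 0.323) and the exact permutation p was 0.1, the smallest possible. Without CCR2-negative replicate 2 the difference was -0.55, with an unadjusted p of 0.00809 and an adjusted p of 0.384, and over all 15 fits that included the gene the adjusted p was 0.212 to 0.491. The unadjusted p was above 0.05 without CCR2-positive replicate 1 (0.0624) and with eBayes trend and robust settings (0.0520).

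Cd14, whose product hands LPS to the TLR4 complex, had values of 5.28, 5.14 and 5.33 in CCR2-positive replicates 1 to 3, against 5.13, 5.51 and 5.33 in CCR2-negative replicates 1 to 3. The groups overlapped, with CCR2-negative replicate 1 the lowest and CCR2-negative replicate 2 the highest of all pools. Cd14 differed by -0.07 ± 0.13, with a 95% interval of -0.36 to 0.21 (adjusted p = 0.842), and the sign turned to 0.02 without CCR2-negative replicate 2.

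CCR2-negative replicate 2 had the highest value of 5 of the 10 genes (Tlr2, Tlr4, Tlr7, Cd14 and Ly96), CCR2-negative replicate 3 of 4, and CCR2-negative replicate 1 of 1. No CCR2-positive pool had the highest value of any of the 10. From their means over all 6 pools, Ly96 lay 1.59 and Tlr4 0.76 higher in CCR2-negative replicate 2. In the same pool the monocyte and macrophage markers lay 0.02 higher and the neutrophil markers 0.03 lower (-0.03) than their own means. Within its group this pool had the highest monocyte and macrophage list mean, 6.29 against 5.96 and 6.13 in replicates 1 and 3. Its neutrophil list mean was also the highest of the group, 5.42 against 5.10 and 5.26. Single markers varied more than the list means. In CCR2-negative replicates 1 to 3, S100a8 had 5.13, 8.41 and 6.82, and S100a9 had 6.31, 7.88 and 6.32. Cd68 had 7.42, 8.20 and 7.52, and its value in replicate 2 was the highest of all 6 pools. The neutrophil markers Itgam (5.68, 5.10 and 5.35) and Ngp (4.70, 4.59 and 4.97) were instead lowest of the group in replicate 2. So was the macrophage marker Adgre1 (4.95, 4.59 and 5.10). Over the groups, the mean marker levels ran the other way from Tlr2, Tlr4 and Ly96. Of 14 measured monocyte and macrophage markers 13 had higher means in CCR2-positive pools, with list means of 6.19 to 6.66 in CCR2-positive pools and 5.96 to 6.29 in CCR2-negative pools. All 13 measured neutrophil markers had higher means there, with list means of 5.37 to 5.98 in CCR2-positive pools and 5.10 to 5.42 in CCR2-negative pools. Csf1r, the receptor of the macrophage growth factor, differed by 0.35 ± 0.13. Ly6c2, a marker of inflammatory monocytes, differed by 0.75 ± 0.37, and by 0.32 and 1.11 without CCR2-positive replicates 2 and 3. Other markers of this list differed less, with Cx3cr1 at 0.11 ± 0.13, Lyz2, the highest in level, at 0.03 ± 0.13 and Cd68 at -0.11 ± 0.24. The stem cell identity list ran the same way as Tlr2, Tlr4 and Ly96, since all 14 measured members had lower means in CCR2-positive pools, with list means of 7.16 to 7.49 in CCR2-positive pools and 7.77 to 8.06 in CCR2-negative pools. Cd34 differed by -0.83 ± 0.17, Procr by -0.37 ± 0.13 and Slamf1, whose pools overlapped, by -0.35 ± 0.21. Whether this list, with Cd34 in it, measures stem cell content was not tested. All 12 measured erythroid markers had higher means in CCR2-positive pools, with a median difference of 0.68. Their list means were 8.87 to 9.39 in CCR2-positive pools and 8.14 to 8.67 in CCR2-negative pools. The median level of the erythroid markers stood at percentile 94.2 of all genes, against 78.0 for the stem cell identity list. The part of these markers in the values of the receptor genes was not tested.

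**Figure D2:**
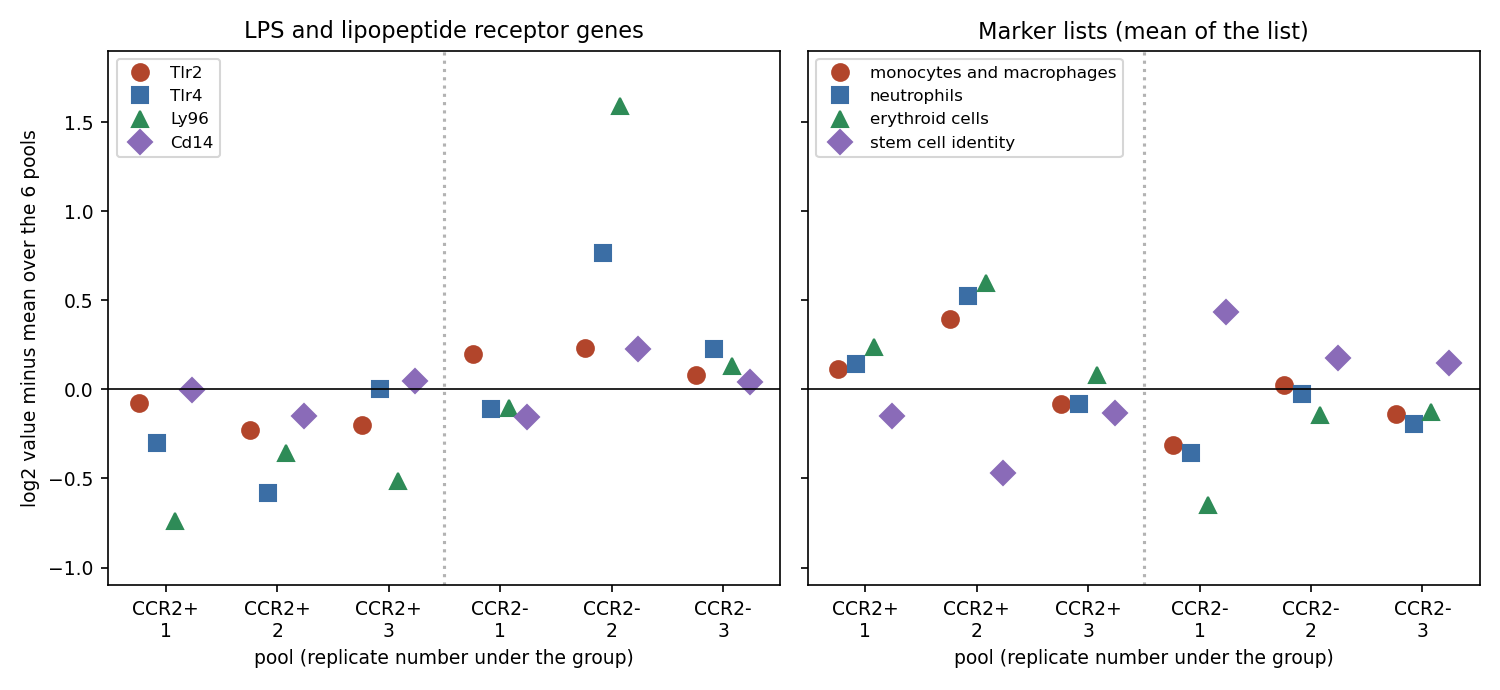
Log2 value minus the mean over all 6 pools (y axis) for Tlr2, Tlr4, Ly96 and Cd14 (left) and for the mean of 4 marker lists (right), by pool, with CCR2-positive pools left of the dotted line. CCR2-negative replicate 2 stands 1.59 above the mean for Ly96 and 0.76 for Tlr4, while the monocyte and neutrophil lists are highest in CCR2-positive replicate 2.

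Among the endosomal receptors chosen here, Tlr9, Tlr3 and Tlr7 differed by 0.07, -0.21 and 0.01. Of the endosomal receptors left to a later paragraph, Tlr8 differed by 0.07 ± 0.13 and Tlr13 by 0.49 ± 0.25. The Tlr13 difference was 0.15 without CCR2-positive replicate 2. Tlr9, the receptor of unmethylated DNA, had log2 values of 6.10, 6.13 and 6.13 in CCR2-positive replicates 1 to 3, against 6.06, 5.91 and 6.18 in CCR2-negative replicates 1 to 3. The CCR2-positive pools lay inside the range of the CCR2-negative pools. Tlr9 differed by 0.07 ± 0.11 (95% interval -0.17 to 0.31, adjusted p = 0.824), and the sign turned to -0.0014 without CCR2-negative replicate 2. Tlr3, the receptor of double-stranded RNA, had values of 4.17, 3.87 and 4.05 in CCR2-positive replicates 1 to 3, against 4.28, 4.04 and 4.40 in CCR2-negative replicates 1 to 3. The groups overlapped, with a difference of -0.21 ± 0.13 (95% interval -0.51 to 0.09, adjusted p = 0.546). It was -0.13 without CCR2-positive replicate 2 or CCR2-negative replicate 3, and -0.31 without CCR2-negative replicate 2, with an unadjusted p of 0.0482. Tlr7, the receptor of single-stranded RNA, had values of 4.21, 4.11 and 4.09 in CCR2-positive pools, against 3.95, 4.28 and 4.16 in CCR2-negative pools. Its CCR2-positive pools lay inside the range of the CCR2-negative pools, and the difference of 0.01 ± 0.12 (95% interval -0.26 to 0.27) turned its sign with the normalization. Siglech, a marker of plasmacytoid dendritic cells, which are rich in both Tlr7 and Tlr9, differed by 0.19 ± 0.13, and by 0.067 without CCR2-positive replicate 3 and 0.30 without CCR2-positive replicate 1. Of the measured markers of these cells 5 of 9 had higher means in CCR2-positive pools, with list means of 6.03 to 6.13 in CCR2-positive pools and 5.99 to 6.03 in CCR2-negative pools. Bst2, Tcf4 and Ly6d, the markers of this list highest in level, differed by -0.26 ± 0.16, -0.09 ± 0.12 and 0.18 ± 0.10.

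Myd88 encodes the adaptor that most of the family shares. Its log2 values were 6.61, 6.64 and 6.11 in CCR2-positive replicates 1 to 3, against 6.34, 6.62 and 6.65 in CCR2-negative replicates 1 to 3. CCR2-positive replicate 3 was the lowest pool, and CCR2-positive replicates 1 and 2 lay within the range of the CCR2-negative pools. Myd88 differed by -0.09 ± 0.16, with a 95% interval of -0.46 to 0.29 (adjusted p = 0.858), and by 0.08 without CCR2-positive replicate 3. The window before its start site is shown whole because the gene serves the whole family and the window lies wholly outside the RefSeq span of the gene, at chr9:119340019-119340268, minus strand, in RefSeq build GRCm38.p6. Capitals mark a GC box and a match to the interferon response core.
Myd88: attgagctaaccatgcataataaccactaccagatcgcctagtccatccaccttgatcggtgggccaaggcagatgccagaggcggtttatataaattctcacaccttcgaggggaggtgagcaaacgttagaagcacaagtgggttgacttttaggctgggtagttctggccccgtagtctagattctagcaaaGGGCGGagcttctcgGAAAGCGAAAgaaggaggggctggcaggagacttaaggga
The window held no NF-kB match. The interferon response core also matched in 1 of the Tlr6 windows. NF-kB, the PU.1 core, the GC box and the interferon response core each matched in 2 of the 8 windows. Over all windows the shares were 3.9%, 23.3%, 32.7% and 2.98% in that order, and no enrichment was tested.

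**Figure D3:**
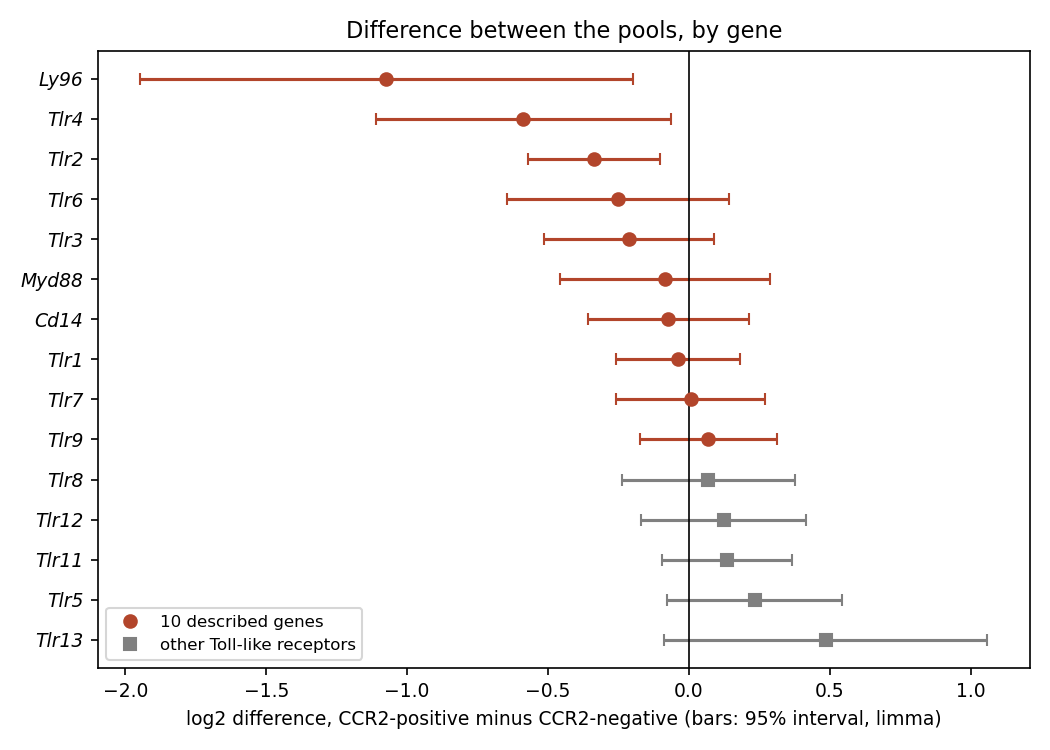
Log2 difference, CCR2-positive minus CCR2-negative (x axis), with its 95% limma interval, for the 10 described genes (red circles) and the other 5 measured Toll-like receptor genes (grey squares). Only the unadjusted intervals of Ly96, Tlr4 and Tlr2 exclude 0, and the 5 other receptors all lie to the right of 0.

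The other 5 Toll-like receptor genes on the array all had a higher mean in CCR2-positive pools, with a median difference of 0.13, where 56.0% of all genes were higher. The median was 0.06 with cyclic loess and 0.21 without CCR2-negative replicate 3. Above the median level of all genes only Tlr5 was left, at 0.23. The mean levels of Tlr13 and Tlr8 stood at percentiles 12.0 and 12.2 of all genes, and those of Tlr11 and Tlr12 at 28.8 and 29.1. None of the 5 reached an unadjusted p under 0.05 in the limma fit of all 6 pools. Tlr13, which in the mouse senses bacterial ribosomal RNA, had values of 3.90, 4.89 and 3.85 in CCR2-positive replicates 1 to 3, against 3.73, 3.81 and 3.64 in CCR2-negative replicates 1 to 3. The pools did not overlap, as for 10.8% of all genes in this direction, but CCR2-positive replicate 2 set the size of the difference of 0.49 ± 0.25, which was 0.15 without it. Its unadjusted p was under 0.05 without CCR2-positive replicate 1 (0.0461) or 3 (0.0346). Tlr5, the receptor of flagellin, differed by 0.23 ± 0.14, by 0.11 with array weights, and by 0.14 without CCR2-negative replicate 2 to 0.33 without CCR2-positive replicate 1, where its unadjusted p was also under 0.05. Tlr11 and Tlr12, which in the mouse sense profilin of protozoa, differed by 0.13 ± 0.10 and 0.12 ± 0.13, which were 0.059 and 0.047 with cyclic loess. Tlr12 ranged from 0.048 to 0.22 with 1 pool left out. Tlr8, the neighbour of Tlr7 on the X chromosome, differed by 0.07 ± 0.13, and its sign turned without CCR2-positive replicate 3 (-0.0057) or CCR2-negative replicate 3 (-0.024).

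The rest of the pathway was followed in lists of accessory proteins, adaptors and kinases, IRF factors, negative regulators, the IL-1 receptor family and response genes. Together with the 5 other receptors, 92 of 97 listed genes were measured. Of these, 36 had higher and 56 lower means in CCR2-positive pools, with a median difference of -0.04, and 4 were higher and 8 lower at an unadjusted p under 0.05, against 5.63% and 6.61% of all genes. None passed the adjusted threshold in the limma fit.

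Among accessory proteins 10 of 17 were higher, with a median of 0.03. This median was below 0 with cyclic loess, above the median level (-0.026), and without CCR2-negative replicate 1 or 2 (-0.024 without replicate 2). Ly86 encodes MD-1, which pairs with the TLR4-like protein CD180 as MD-2 does with TLR4. Its values were 6.56, 5.49 and 5.93 in CCR2-positive replicates 1 to 3, against 4.97, 5.01 and 5.20 in CCR2-negative replicates 1 to 3. All CCR2-positive pools lay above all CCR2-negative pools, with a difference of 0.93 ± 0.24 (adjusted p = 0.218), opposite in sign to Ly96. The endolysosomal transporter genes Slc15a3 and Slc15a4 differed by 0.37 ± 0.12 and 0.30 ± 0.13. Cnpy4, another gene of this list, differed by -0.29 ± 0.15, with overlapping pools.

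Of the other adaptors and proximal kinases, 3 of 19 were higher and 16 lower, with a median of -0.12. The kinase gene Tbk1 differed by -0.40 ± 0.14 and its relative Ikbke by -0.43 ± 0.17. Tirap, which encodes the adaptor that bridges TLR2 and TLR4 to MyD88, differed by 0.39 ± 0.18, and by 0.21 without CCR2-positive replicate 3. Peli1, a ubiquitin ligase of the pathway, differed by -0.48 ± 0.26, which was -0.14 without CCR2-positive replicate 2. Of 4 measured IRF factors 2 were higher and 2 lower, with Irf1 at -0.25 ± 0.10 and Irf8 at 0.38 ± 0.23, which was 0.12 without CCR2-positive replicate 2.

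Among the negative regulators 14 of 16 were lower, with a median of -0.16. Irak3 encodes a kinase-like protein that restrains signalling by MyD88. Its values were 6.51, 6.82 and 6.85 in CCR2-positive replicates 1 to 3, against 7.64, 7.31 and 7.39 in CCR2-negative replicates 1 to 3. The pools were separate, with a difference of -0.72 ± 0.14 (adjusted p = 0.177). Ptpn6, the gene of the phosphatase SHP-1, differed by -0.44 ± 0.11, Sigirr, an inhibitory receptor gene, by -0.40 ± 0.18, and Tnip3, an NF-kB inhibitor gene, by -0.39 ± 0.19. Sigirr was -0.27 without CCR2-positive replicate 1 or CCR2-negative replicate 1, and Tnip3 was -0.24 without CCR2-positive replicate 2 and -0.62 without CCR2-positive replicate 3.

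Of 6 measured genes of the IL-1 receptor family 4 were lower, with a median of -0.07, which was -0.033 without CCR2-positive replicate 2. The median was -0.18 for the 4 genes above the 25th percentile of level and -0.26 for the 3 genes above the median level. Il18rap, a chain of the IL-18 receptor, which also signals through MyD88, had values of 5.57, 5.65 and 5.67 in CCR2-positive replicates 1 to 3, against 6.13, 6.16 and 6.55 in CCR2-negative replicates 1 to 3. The pools did not overlap, and the difference was -0.65 ± 0.13 (adjusted p = 0.177).

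Response genes, which the pathway switches on in mature cells, were split, with 12 of 25 higher and 13 lower and a median of -0.0049. The median was -0.16 for those above the median level and 0.07 without CCR2-negative replicate 1. Ier3, an early response gene, differed by -0.72 ± 0.19 and Icam1, an adhesion molecule gene, by -0.36 ± 0.16, which was -0.21 without CCR2-negative replicate 1. Lcn2, a siderophore-binding protein gene that is also a neutrophil marker, differed by 0.58 ± 0.14, and the chemokine gene Cxcl2 by 0.42 ± 0.15.

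**Figure D4:**
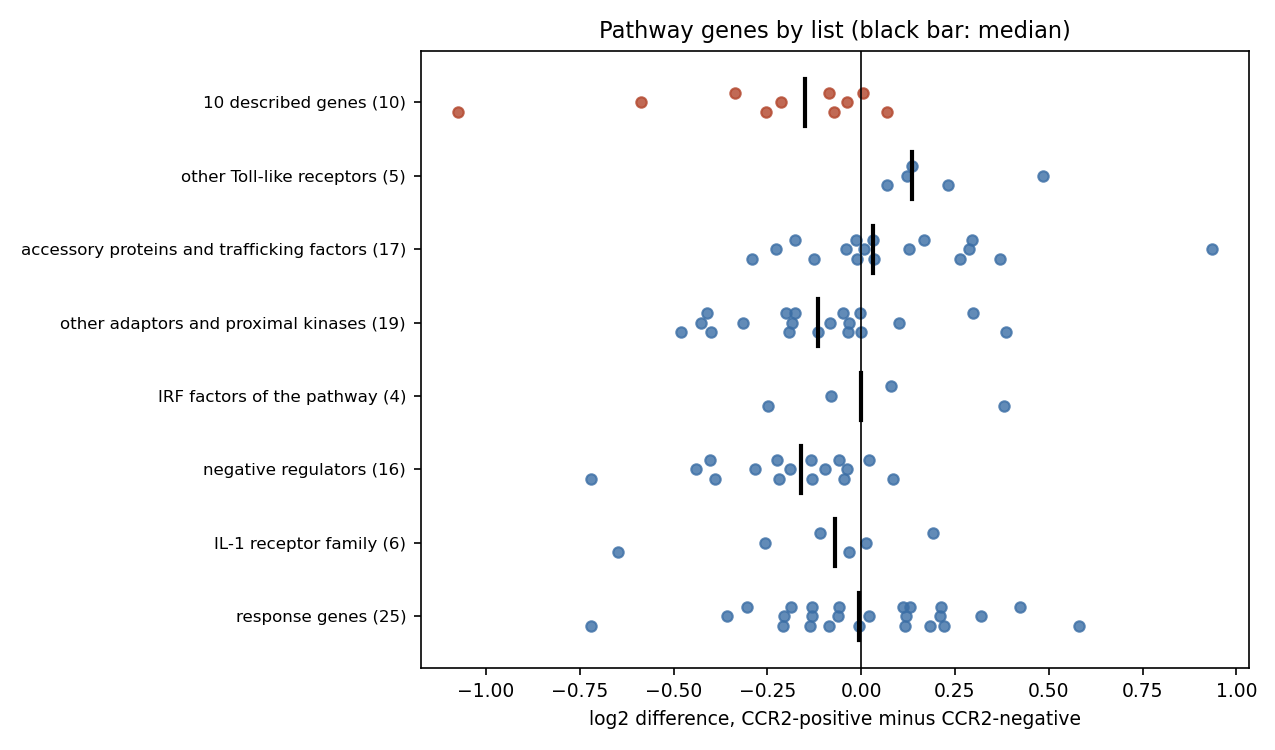
Log2 difference, CCR2-positive minus CCR2-negative (x axis), of each measured gene of the pathway lists, with the number of genes in brackets and the median of each list as a black bar. The described genes have a median of -0.15, the other adaptors and kinases -0.12 and the negative regulators -0.16, and the other Toll-like receptors 0.13.

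The genes whose pattern over the 6 arrays was most like that of the 3 genes with an unadjusted p under 0.05 were looked up as a description. This search left out predicted genes, genes named only by a RIKEN clone, small RNA genes, and olfactory and vomeronasal receptor genes. Pla2g4a, a phospholipase gene, was closest to Tlr2 (Pearson r = 0.997). Cox7c, a subunit of the respiratory chain, was closest to Tlr4 (r = 0.991), and Vps29, a subunit of the retromer, was closest to Ly96 (r = 0.994). With 6 arrays these genes were not alone: 89, 27 and 48 of the searched genes had r above 0.95 with Tlr2, Tlr4 and Ly96 in that order, and the points share the group difference.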

How the data were processed

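The deposited table holds log2 values of 41345 probe sets on 6 arrays. Per the submitters' processing notes these come from RMA, which corrects background, normalizes between arrays and summarises probes. No version, setting, genome build or detection call is given in the sources used here. Differences are therefore relative to the other genes of an array. The number of arrays limits the precision, with a median standard error of 0.127 per difference.

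The platform annotation gave 1 gene to 23521 probe sets, several to 1814 and none to 16010. The probe set with the highest mean represented a gene, which left 22180 genes. CCR2-positive and CCR2-negative pools were compared by limma (version 3.58.1; R version 4.3.3) without covariates, using lmFit, eBayes and Benjamini-Hochberg adjustment over all genes. The fit was also run on simulated data with normal noise. The shifts put in were larger than most of the differences described here, so that run does not tell how often such differences are found.

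The members and lists were chosen with earlier results of these data known. All 10 members, the other Toll-like receptors, and up to 4 genes of each pathway list with the smallest p are named, besides Ccr2 and set markers. Marker lists also covered B cells, dendritic cells, and T and NK cells: 7 of 9, 4 of 8 and 8 of 10 measured genes had higher means in CCR2-positive pools. Listed genes without a probe set of their own were not analysed here.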

Additional observations from a re-analysis of the deposited data

How the results depend on the processing

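Alternatives were 2 filters on dim genes, a second quantile normalization, median centring, cyclic loess, a replicate block, other variance settings, weighted arrays, averaged probe sets, all probe sets tested, each pool left out, and the exact permutation test. In each limma fit 0 members had an adjusted p under 0.05. Over all genes the count was 0, and 0 to 2 with 1 pool left out (2 without CCR2-positive replicate 1). Members at an unadjusted p under 0.05 numbered 3, all lower. There were 2 among the members above the 25th percentile of level, which leaves out Ly96, 2 with eBayes trend and robust settings and 2 with all probe sets tested. There was 1 among the 4 members above the median level, a filter that leaves out Tlr4 and Ly96, and 1 to 3 with 1 pool left out. The median difference of the members was -0.20 to -0.14 over the other alternatives and -0.19 to -0.10 with 1 pool left out.

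Signs turned in 8 of 150 member values, for 4 members whose differences were below their standard errors; the cause was not tested. Tlr7 was -0.012 after a second quantile normalization, -0.018 with median centring and -0.042 with cyclic loess. With 1 pool left out, Tlr7 ranged from -0.083 to 0.081, Tlr9 from -0.0014 to 0.131, Cd14 from -0.169 to 0.021, Myd88 from -0.184 to 0.084 and Tlr8 from -0.024 to 0.167. The median of all genes was -0.033 without genes under the median level.

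Whether same-numbered pools belong together is not stated in the labels used here. Deviations of same-numbered pools from their group means correlated at 0.03, 0.09 and 0.04, and CCR2-positive replicate 3 correlated best with another number. With 3 pools per group such values cannot exclude a pairing. With a replicate block the members at an unadjusted p under 0.05 were again 3, Tlr13 had an unadjusted p of 0.0416, and 0 genes passed the adjusted threshold. Ly96 had a standard error of 0.26 and an unadjusted limma p of 0.00474 with the block, against 0.38 and 0.0217 without it.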
